A study of Mus musculus with 2 samples.

Results

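The barcodes described here are those in which transcripts of the mitochondrial genome made up more than 80% of the unique molecular identifiers (UMIs, tags that count single captured RNA molecules). There were 366 of them among 1008 barcodes in replicate 1 (36.3%, exact binomial Clopper-Pearson 95% interval 33.3 to 39.4) and 285 among 849 in replicate 2 (33.6%, 30.4 to 36.9), 651 of 1857 in all. The mean share was 34.9% ± 1.94 (SD, n = 2 libraries). They were chosen by that measured share, with no use of any other gene. Both libraries are 10x Chromium single-cell RNA libraries from mice of wild type genotype that had undergone burn/tenotomy, a burn combined with cutting of a tendon. A microfluidic iChip had sorted their whole blood, and the cells are labelled cMPCs, an abbreviation the labels do not spell out, and blood cells. The libraries, replicate 1 and replicate 2, form 1 group with no uninjured control analysed here. The labels do not tie either library to its own animals, so the spread between them may be technical.

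The mitochondrial genome encodes proteins of the respiratory chain only. Each of its strands is transcribed as a long RNA that is cut into messages, which carry short poly(A) tails and so can be captured like nuclear messages. Complex I (the mt-Nd genes), complex III (mt-Cytb), complex IV (mt-Co1, mt-Co2 and mt-Co3) and complex V (mt-Atp6 and mt-Atp8) take part of their subunits from these messages and the rest from nuclear genes. Red cells lose their mitochondria as they mature, whereas platelets and leukocytes keep theirs.

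The rule used the summed share of the mitochondrial genes, so that share is a description. Its median was 95.5% in replicate 1 and 95.3% in replicate 2, and the highest was 99.6% and 99.4%. Shares were far from evenly spread: 211 and 159 barcodes lay over 95%, 19 and 15 between 80 and 85%, and 6 and 6 just outside, between 75 and 80%. The nearest barcodes on either side of the limit had 80.5% and exactly 80% in replicate 1, and 80.1% and 79.4% in replicate 2. The barcodes over 80% held 8.01% of all UMIs of replicate 1 and 8.28% of replicate 2, but 81.9% and 86.7% of the mitochondrial UMIs. No barcode sequence occurred in both libraries (0 shared).

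**Figure D1:**
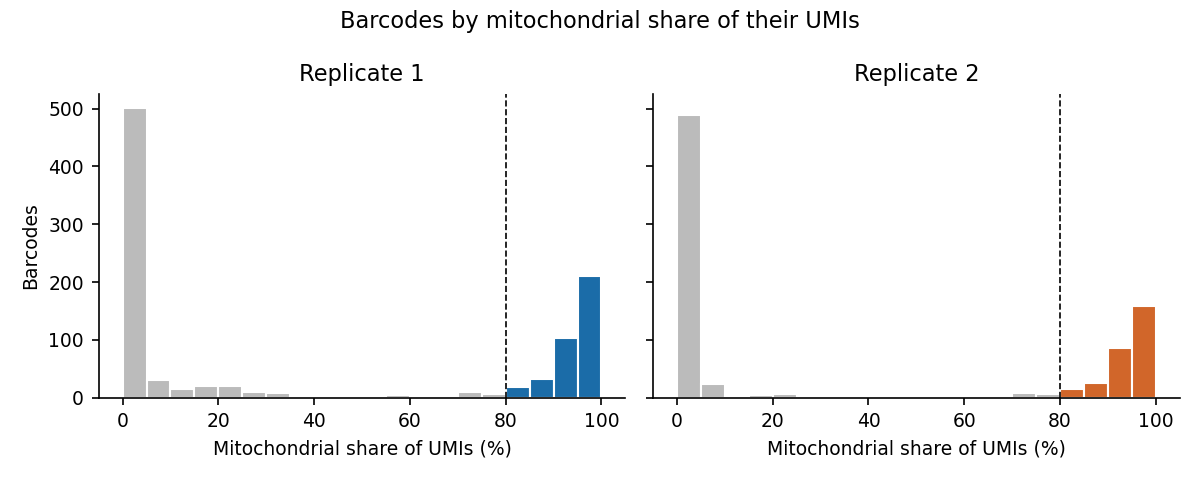
Number of barcodes (vertical axis) by the mitochondrial share of their UMIs in percent (horizontal axis, steps of 5), for each library. Coloured bars right of the dashed line are the 366 and 285 barcodes over 80%, and most of the others lie between 0 and 5%.

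They were shallow. Their median depth was 765 UMIs in replicate 1 (range 501 to 3749) and 799 in replicate 2 (502 to 7008). Only a median of 37 and 40 UMIs per barcode came from nuclear genes, with a range of 4 to 296 and 4 to 797, and these fell on a median of 27 and 29 nuclear genes. Summed over all of them, the nuclear-encoded RNA amounted to 17974 UMIs in replicate 1 and 16702 in replicate 2. Barcodes with at most 20% mitochondrial UMIs, 568 and 521 of them, had a median of 4770 and 3774 UMIs. With every barcode thinned to 500 UMIs, which left out 0 barcodes, the median was 29 and 30 detected genes in barcodes over 80%, against 39 and 41 unthinned. The low-haemoglobin barcodes described next had 322 and 50.5 genes after thinning, and barcodes with at least 90% haemoglobin UMIs had 22 and 22.

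Most barcodes with little mitochondrial RNA were red cells, with 82.5% and 83.6% of nuclear-encoded UMIs from haemoglobin genes, so a stricter comparator was also used: barcodes with at most 20% mitochondrial and under 40% haemoglobin UMIs. It held 92 barcodes in replicate 1 (median 2047.5 UMIs) and 134 in replicate 2 (median 913.5). These 2 sets were not alike. The neutrophil list was at 20403 UMIs per 1000000 nuclear-encoded UMIs (CPM) in replicate 1 and 4.68 in replicate 2, and Gm42418, which overlaps ribosomal RNA sequence, at 147765 and 321212 CPM. The spread of the comparator between libraries is therefore given beside each result. The comparator held 243007 and 213803 nuclear-encoded UMIs, against 17974 and 16702 over 80%. Values given below as UMIs and not as CPM are not scaled for this.

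The genes behind the results overlap or have near-identical copies, and the sequences below show how far their reads can be told apart. They are from GENCODE M21 transcripts (GRCm38/mm10), 5′ to 3′ on each gene's own strand. In mt-Atp8 (chrM:7766-7969, + strand), capitals mark the 43 bases that are also the start of mt-Atp6. At the end of mt-Nd4l (chrM:10114-10173, + strand) they mark the 7 bases shared with mt-Nd4. At the ends of mt-Nd5 (chrM:13506-13565, + strand) and mt-Nd6 (chrM:13552-13611, - strand) they mark 14 bases that pair with each other, since these genes lie on opposite strands.
mt-Atp8: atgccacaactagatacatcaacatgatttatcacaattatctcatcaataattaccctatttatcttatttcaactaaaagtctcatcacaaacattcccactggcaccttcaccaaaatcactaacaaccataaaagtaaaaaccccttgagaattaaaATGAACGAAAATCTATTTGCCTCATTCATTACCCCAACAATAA
mt-Nd4l end: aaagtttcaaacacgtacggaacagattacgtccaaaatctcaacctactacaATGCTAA
mt-Nd5 end: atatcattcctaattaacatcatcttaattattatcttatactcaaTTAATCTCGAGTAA
mt-Nd6 end: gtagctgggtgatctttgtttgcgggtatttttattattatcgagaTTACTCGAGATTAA

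Of the 13 mitochondrial genes in the matrix, 9 have annotated nuclear pseudogene copies that are at least 95% identical over at least 200 bases, 11 copies in all. The closest lie on chromosome 1: Gm28437 matched mt-Co3 at 100% over 783 bases, Gm10925 matched mt-Atp6 at 100% over 678 bases, and Gm28661 matched mt-Co2 at 100% over 681 bases. None of the 11 copies is a row of the matrix (0), so they have no counts of their own. Reads from stretches of 100% identity cannot be told apart from mitochondrial ones. Other copies differ at some bases, down to 95.2% identity for Gm4076 and mt-Nd5, and where their reads fell was not tested.

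The nuclear-encoded RNA of these barcodes carried transcripts of a repeat family that were near 0 in barcodes with at most 20% mitochondrial UMIs. Capitals in the next 4 sequences mark bases that differ within the set. Each is a stretch of 100 bases from a gene whose level is described further on, and 95 of the 100 bases are the same in all 4. The genes are Gm10800 (chr2:98666547-98667301, - strand, transcript bases 70 to 169), Gm10801 (chr2:98662237-98664083, + strand, 142 to 241), Gm10717 (chr9:3025417-3033289, + strand, 73 to 172) and Gm21738 (chr14:19415857-19418930, - strand, 70 to 169).
Gm10800: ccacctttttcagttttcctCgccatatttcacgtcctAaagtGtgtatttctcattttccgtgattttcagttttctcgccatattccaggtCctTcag
Gm10801: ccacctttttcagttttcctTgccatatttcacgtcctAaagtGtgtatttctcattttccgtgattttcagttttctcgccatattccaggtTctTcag
Gm10717: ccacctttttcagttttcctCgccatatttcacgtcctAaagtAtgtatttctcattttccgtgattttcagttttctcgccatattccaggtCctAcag
Gm21738: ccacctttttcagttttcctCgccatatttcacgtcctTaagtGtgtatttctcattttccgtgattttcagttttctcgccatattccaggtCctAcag

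The mitochondrial RNA was led by the same genes in both libraries. mt-Co3, a core subunit of cytochrome c oxidase (complex IV), made up 22.6% of mitochondrial UMIs in replicate 1 and 23.0% in replicate 2. mt-Atp6, the proton channel subunit of ATP synthase, made up 20.6% and 21.1%, and mt-Co2, which takes electrons from cytochrome c, 16.3% and 16.0%. Together these marker genes held 59.5% and 60.1%. The gene with the most UMIs was mt-Co3 in 255 and 211 barcodes, mt-Atp6 in 110 and 72, and mt-Co2 in 1 and 2, which accounts for every barcode over 80%. These are the markers given for the barcodes, but they were chosen with results of these data known, so the match is no support. In barcodes between 20 and 80%, mt-Co3 held 21.9% and 21.9%, mt-Atp6 21.5% and 21.4%, and mt-Co2 16.6% and 17.3%.

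The remaining genes followed in an order that hardly differed between libraries. mt-Co1, the catalytic subunit of complex IV, held 10.7% and 9.71%, and mt-Cytb, the cytochrome of complex III, 9.73% and 9.83%. Which of these 2 was higher depended on the library. Among the complex I genes mt-Nd1 held 6.06% and 5.86%, mt-Nd4 5.70% and 5.78%, mt-Nd2 4.63% and 4.82%, and mt-Nd3 2.09% and 2.31%. mt-Nd1 lay above mt-Nd4 in both libraries, but in replicate 2 by less than mt-Nd1 itself differed between libraries. mt-Nd5, the largest of them, held 0.842% and 0.898%, and mt-Nd4l 0.466% and 0.397%. mt-Atp8 held 0.236% and 0.234%.

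mt-Nd6, which is encoded on the strand opposite to all the other protein genes, was at the bottom with 68 UMIs (0.0227%) and 63 UMIs (0.0243%). It had 0 UMIs in 305 and 234 of the barcodes over 80%, while mt-Atp8 had 0 in 68 and 56, mt-Nd4l in 22 and 25, and mt-Nd5 in 7 and 1. The other 9 genes were found in every barcode over 80%. By complex, complex IV took 49.6% and 48.8% of mitochondrial UMIs, complex V 20.9% and 21.3%, complex I 19.8% and 20.1%, and complex III 9.73% and 9.83%.

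Per kilobase of gene the order changed. mt-Atp6 led with 90793 UMIs per kb in replicate 1 and 80054 in replicate 2, followed by mt-Co3 with 86250 and 76080 and mt-Co2 with 71496 and 60725. mt-Cytb (25501 and 22259), mt-Co1 (20807 and 16267), mt-Nd3 (18014 and 17207) and mt-Nd1 (18995 and 15857) came next. mt-Nd6 had 131 and 121 UMIs per kb. mt-Atp8, whose end overlaps the start of mt-Atp6, had only 3471 and 2966 UMIs per kb. mt-Nd4l, whose end overlaps the start of mt-Nd4, had 4704 and 3458, against 12391 and 10859 for mt-Nd4. The labels do not say which end of the transcript the kit tagged, so counts may not scale with gene length. The part of a gene's position on its message in these values was not tested.

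Against barcodes with little mitochondrial RNA, the make-up differed most, in percentage points, in mt-Co1. It held 25.3% and 31.7% of mitochondrial UMIs in all barcodes with at most 20%, and 20.3% and 22.4% in the low-haemoglobin ones. Both are above the 10.7% and 9.71% given earlier, and the libraries of the classes did not overlap. mt-Nd3 went the other way, with 0.895% and 0.684% in barcodes with at most 20%, and 0.859% and 1.10% in low-haemoglobin barcodes. mt-Nd1 (3.29% and 2.78%, and 3.59% and 4.08%), mt-Nd2 (2.76% and 2.21%, and 3.47% and 3.34%) and mt-Cytb (6.13% and 5.12%, and 7.14% and 7.52%) were also lower there. mt-Co2 stood at 15.8% and 15.7% in barcodes with at most 20% and 15.9% and 16.0% in low-haemoglobin ones, near its 16.3% and 16.0% over 80%. These differences in make-up were not tested.

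**Figure D2:**
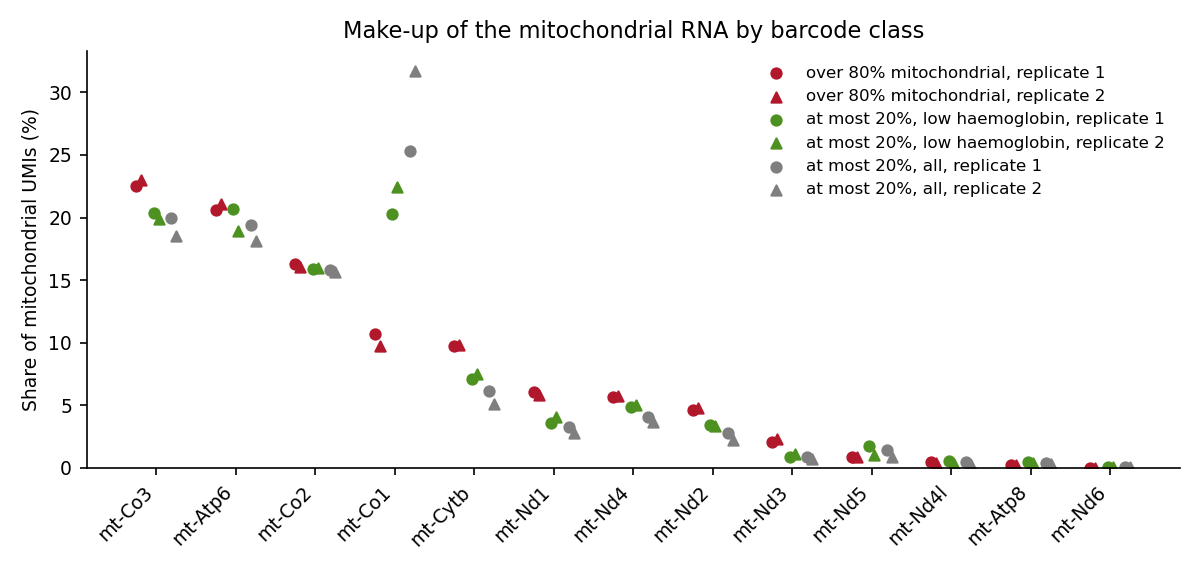
Share of mitochondrial UMIs in percent (vertical axis) for the 13 mitochondrial genes, with circles for replicate 1 and triangles for replicate 2, and colours for the barcode classes. mt-Co1 stands at 10.7% and 9.71% in barcodes over 80% and at 25.3% and 31.7% in all barcodes with at most 20%, while mt-Co2 lies near 16% in each class.

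The mt-Co1 share was lower in each successive bin of the barcodes' mitochondrial share, also within the range over 80%. Pooled over barcodes with at most 2% mitochondrial UMIs, it was 42.6% in replicate 1 and 44.2% in replicate 2. It was 17.2% and 18.1% at 5 to 20%, 11.99% and 11.2% at 60 to 80%, 11.4% and 10.2% at 80 to 90%, and 10.1% and 9.03% over 97%. Between the lowest and the highest of these bins mt-Cytb went from 2.65% and 2.16% to 9.97% and 10.3%, mt-Nd1 from 1.41% and 1.21% to 6.20% and 6.10%, and mt-Co3 from 17.0% and 16.1% to 23.0% and 23.6%. For mt-Cytb the order broke in the middle, with 9.44% and 8.68% at 60 to 80% and 9.15% and 8.89% at 80 to 90%. Bins of the middle range are thin: 12 and 10 barcodes at 40 to 60%, and 15 in replicate 2 at 20 to 40% and 18 at 60 to 80%. Haemoglobin genes took 87.3% and 88.6% of nuclear-encoded UMIs in the lowest bin, and the part of red cells in its mt-Co1 share was not tested.

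**Figure D3:**
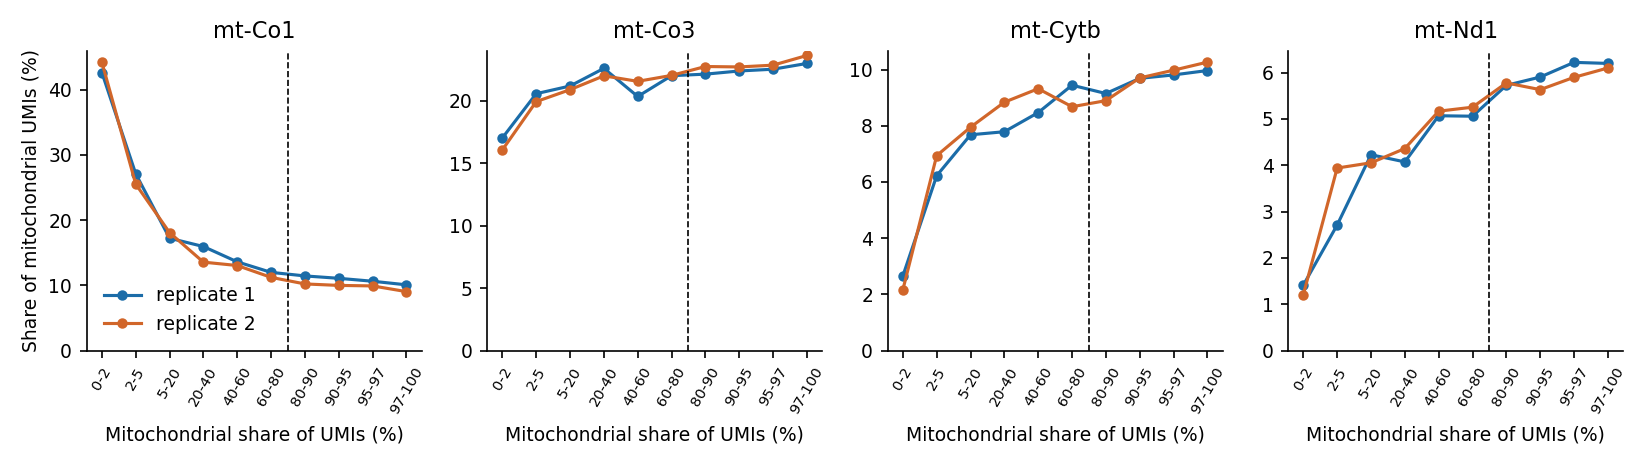
Share of mitochondrial UMIs in percent (vertical axes) of 4 mitochondrial genes in bins of the barcodes' mitochondrial share in percent (horizontal axes), pooled over the barcodes of a bin, with a line per library and the limit of 80% dashed. mt-Co1 goes from 42.6% and 44.2% down to 10.1% and 9.03%, while mt-Cytb and mt-Nd1 end higher than they start.

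Between barcodes over 80% the make-up varied more than counting alone gives. Chi-square over its degrees of freedom, which is near 1 where every barcode draws from the same make-up, was 2.32 in replicate 1 and 2.44 in replicate 2. The excess was largest for mt-Co1, whose observed variance was 5.22 and 5.25 times the binomial one, with a median of 10.7% and 9.43% per barcode and extremes of 4.17 to 22.2% and 4.28 to 19.5%. mt-Cytb followed with 3.45 and 4.10 times, and mt-Nd1 with 2.95 and 3.04. mt-Co2 varied by 1.68 and 1.79 times, and mt-Atp8, a gene of few UMIs, by 1.22 and 1.33.

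The nuclear-encoded remainder of these barcodes was spread thinly over many genes. UMIs fell on 4555 nuclear genes in replicate 1 and 4448 in replicate 2, of which 2164 were found in both, and 382 genes reached 10 UMIs over both libraries. Gm42418, a long noncoding RNA locus on chromosome 17 that overlaps ribosomal RNA sequence, led with 14.0% and 12.6% of nuclear-encoded UMIs (2518 and 2110 UMIs, in 350 and 266 barcodes). Haemoglobin genes held 10.9% and 8.74%. Among them Hbb-bs, a beta globin, led with 788 and 532 UMIs, and the other beta globin Hbb-bt had 127 and 94. The alpha globins had 548 and 420 UMIs (Hba-a1) and 497 and 414 UMIs (Hba-a2). These alpha globins are near-identical copies, so the split between them is uncertain.

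Cmss1, a factor of ribosome biogenesis, had 606 and 617 UMIs, the kinase gene Camk1d 253 and 354, and Cdk8, a kinase of the Mediator complex, 145 and 140. They were followed by Tmsb4x, an actin-binding peptide (101 and 114), Plce1, a phospholipase C (90 and 62), Rbfox1, a splicing factor (61 and 80), Tpt1 (69 and 63) and Mgp, matrix Gla protein (66 and 54). Gm10800 with 474 and 462 UMIs and Gm10801 with 195 and 173 completed the 15 leading genes, which together held 36.4% and 34.1%. For the haemoglobin genes, a UMI was present in 92.9% and 89.8% of barcodes over 80% (median depth 765 and 799 UMIs).

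Transcripts of repeat genes, 12 of which are rows of the matrix, were abundant over 80% and scarce in barcodes with at most 20% mitochondrial UMIs. GENCODE M21 holds 13 genes at least 80% identical to Gm10800 over at least 200 bases, on chromosomes 2, 9 and 14. The shift at which each transcript best matched itself was 225 to 237 bases. At that shift 52.7% (Gm10801) to 78.3% (Gm26870) of bases matched, so the repeat is imperfect. The shift is near the size of the mouse major satellite, the repeat that fills the heterochromatin beside centromeres. These genes are called satellite-like here. The sequences above share 95 of 100 bases, and over the aligned transcripts the other copies are 90.6 to 93.7% identical to Gm10800. The split of reads between copies is therefore uncertain, and the summed level is given first. It was 43062 CPM in replicate 1 and 45444 in replicate 2, against 7.37 and 8.37 in barcodes with at most 20% mitochondrial UMIs and 78.2 and 98.2 in the low-haemoglobin ones. Of all satellite-like UMIs of a library, 774 of 875 and 759 of 1063 lay in barcodes over 80%. Barcodes between 20 and 80% held another 75 and 279, in 13 of 74 and 6 of 43 barcodes, at 1322 and 10431 CPM.

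Gm10800 was at 26371 and 27661 CPM, against 49.4 and 65.5 in low-haemoglobin barcodes. Gm10801 was at 10849 and 10358 CPM against 12.3 and 23.4, Gm21738 at 1613 and 2036 against 0 and 4.68, and Gm10717 at 1502 and 1676 against 12.3 and 0. Both libraries over 80% lay above both comparator libraries for each. Of the 12 genes 7 reached the count minimum for a test, in each case through the barcodes over 80% alone. The filter thus favoured a difference, and no p-value is given.

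A UMI of these genes was present in 90 of 366 barcodes over 80% in replicate 1 (24.6%) and 78 of 285 in replicate 2 (27.4%). In red cells with at least 90% haemoglobin UMIs the share was 1.16% and 1.23%, at a median depth of 10585 and 11125.5 UMIs. At least 5 such UMIs were found in 36 and 32 barcodes, with up to 79 and 63 in a single barcode, and these held 673 of the 774 and 676 of the 759 UMIs. Their median mitochondrial share was 90.6% and 90.1%, against 96.0% and 96.1% in barcodes over 80% with 0 satellite-like UMIs. They had more nuclear-encoded UMIs, a median of 75.5 and 80 against 33 and 31. The satellite-like UMIs that chose these barcodes are 22.5% and 21.4% of their summed nuclear-encoded UMIs. The higher count and the lower mitochondrial share therefore follow in part from the choice.

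Other nuclear RNA of the satellite-rich barcodes differed too. Of their nuclear-encoded UMIs outside the satellite-like genes, ribosomal protein genes took 6.62% and 6.04%, against 10.7% and 10.6% where the satellite count was 0. Genes spanning over 500 kb took 5.23% and 6.96% against 3.08% and 4.31%. The haemoglobin share was similar in replicate 1 (11.9% against 11.3%) and lower in replicate 2 (8.53% against 10.1%). mt-Co1 held 11.2% and 10.4% of mitochondrial UMIs against 10.5% and 9.59%. These are descriptions of barcodes within a library, with no test.

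By mitochondrial share, the satellite-like part of the nuclear-encoded UMIs was highest at 80 to 90%, with 7.13% and 7.50%. It was 3.91% and 3.37% at 90 to 95%, 2.04% and 2.83% at 95 to 97%, and 0.994% and 1.37% over 97%. Below 80% the libraries differed: the 21 barcodes of replicate 1 at 60 to 80% had 0.847% and the 18 of replicate 2 had 6.35%. Ribosomal protein genes took 6.80% and 5.39% at 80 to 90% and 11.2% and 10.97% at 90 to 95%. Haemoglobin genes took 6.61% and 4.53% at 80 to 90% and 16.7% and 15.2% over 97%.

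**Figure D4:**
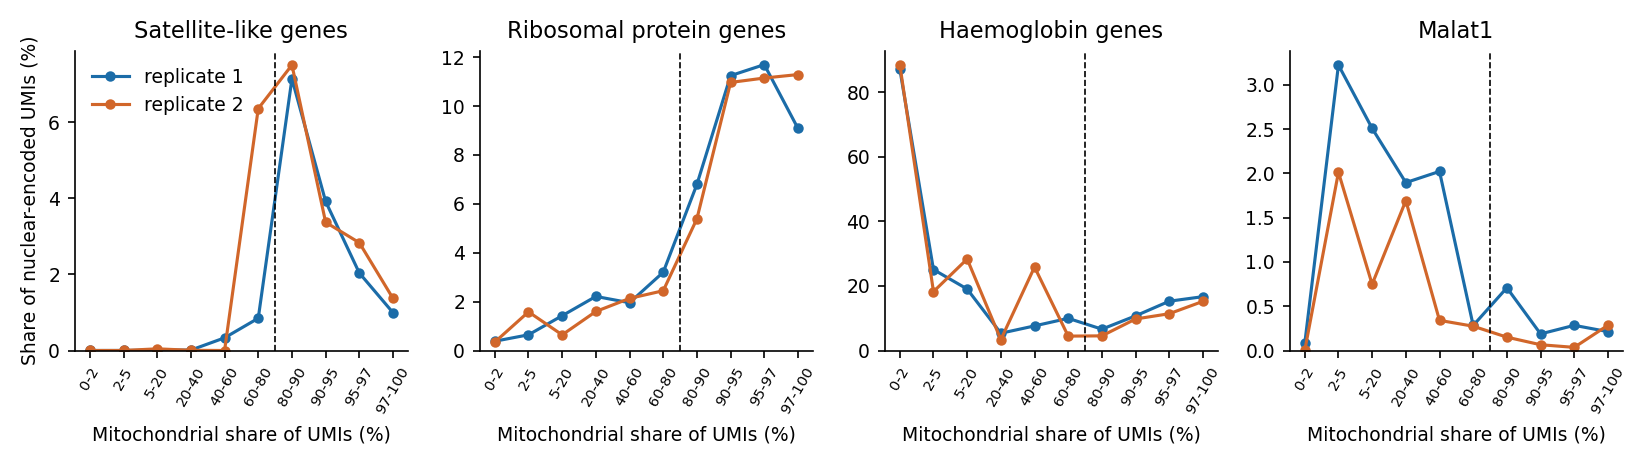
Share of nuclear-encoded UMIs in percent (vertical axes) held by satellite-like genes, ribosomal protein genes, haemoglobin genes and Malat1, in bins of the barcodes' mitochondrial share in percent (horizontal axes), with a line per library and the limit of 80% dashed. Satellite-like genes reach 7.13% and 7.50% at 80 to 90% and ribosomal protein genes stay above 5% in every bin over 80%.

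Against low-haemoglobin barcodes, edgeR's quasi-likelihood test with Benjamini-Hochberg adjustment covered 1799 genes with haemoglobin genes left out and called 117 higher (6.5% of those tested) and 35 lower (1.95%) in barcodes over 80%, each with the same sign in both libraries. Over all 1799 genes the log2 fold changes had a median of -0.66. With 1 residual degree of freedom the spread was wholly the one shared across genes, so a gene's own difference between libraries did not enter its p-value. When scaled by total UMIs alone the calls were 136 and 8 and the median was -0.38, and with size factors of the DESeq2 kind they were 115 and 79 with a median of -0.89. Higher genes were thus 77.0% of the calls, 94.4% under totals and 59.3% under size factors.

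A gene entered the test when 2 of the 4 sums reached 95.9 CPM, so many genes entered through 1 class only. For these the filter favours a difference toward that class. Both classes reached it in both libraries for 369 genes, of which 55 were higher (14.9%) and 2 lower (0.542%). The barcodes over 80% alone carried 374 genes into the test, 62 of them called higher, and the comparator alone 689, 33 of them called lower. Fold changes were above 0 for 349 of the 374 and for 4 of the 689. For such genes values are given below with no p-value.

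Cytosolic ribosomal protein genes, the protein parts of the ribosome, were the largest group among the higher genes. Of 86 such genes 79 passed the filter on low counts, 53 were higher (67.1%, against 6.5% of all genes tested) and 0 lower, with a median log2 fold change of 2.49 against -0.66. Among the 62 that both classes carried into the test, 45 were higher (72.6%, against 14.9% of all such genes) and 0 lower, with a median of 2.40 against 0.11. Rpl23, of the large subunit, was at 2559 and 2096 CPM against 313 and 253 in the comparator, a log2 fold change of 2.78 (SE 0.81, edgeR adjusted p = 0.0128). Rplp1 of the ribosomal stalk was at 3394 and 3413 CPM against 370 and 538, and Rps24 of the small subunit at 2782 and 2395 against 362 and 374. Rpl41 was at 2392 and 2634 CPM against 440 and 435 and did not pass (edgeR adjusted p = 0.0629). All 79 fold changes were above 0, also under both other scalings. The number called fell to 17 of 79 with no replicate block, 28 of 79 by DESeq2, 33 of 79 with barcodes over 90% and 4 of 78 among barcodes with at least 1000 UMIs, where 77 of the 78 stayed above 0. The barcodes over 80% were the shallower ones, and the part of depth in this count was not tested.

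In all barcodes over 80% the ribosomal protein genes held 9.71% and 9.03% of nuclear-encoded UMIs. Their summed level was 97140 and 90349 CPM, against 14946 and 14228 in low-haemoglobin barcodes and 4332 and 4202 in all with at most 20%. The groups did not overlap. A UMI of the family was present in 82.8% and 87.0% of barcodes over 80%, and in 100% and 100% of the far deeper red cells.

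Nuclear-encoded subunits of the respiratory chain are the partners of the mitochondrial messages. They were at 7678 and 6466 CPM of nuclear-encoded UMIs over 80%, against 2016 and 2301 in low-haemoglobin barcodes and 947 and 1016 in all with at most 20%. Of 75 matched genes, 64 had a UMI in barcodes over 80%, but only 138 and 108 UMIs in sum. Of the 13 that could be tested against low-haemoglobin barcodes, 12 entered through the barcodes over 80% alone, and 1 was called (7.69%, against 6.5% of all genes tested). That gene was Atp5e, a subunit of ATP synthase, at 668 and 419 CPM against 53.5 and 56.1. Cox6c of complex IV was at 390 and 240 CPM against 45.3 and 74.8, and Uqcrh of complex III at 445 and 180 against 53.5 and 70.2. Against all barcodes with at most 20%, 42 were tested, 1 was called higher (2.38%) and 4 lower (9.52%), with a median log2 fold change of -0.35 under TMM. Under total UMIs alone 26 were higher, 0 lower and the median was 3.36.

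Genes that handle mitochondrial RNA inside the organelle gave 5 and 7 UMIs from 24 matched genes, of which 15 had 0. Their summed level was 278 and 419 CPM, against 428 and 281 in low-haemoglobin barcodes and 39.4 and 31.8 in all with at most 20%. Polg, the mitochondrial DNA polymerase, and Twnk, the helicase, had 1 UMI in each library. Of 25 genes of mitophagy and mitochondrial dynamics 6 could be tested against low-haemoglobin barcodes and 0 were called. Tomm20, an import receptor of the outer membrane, had 2 and 6 UMIs, and Fis1, a fission factor, 2 and 2. Of 21 apoptosis genes 14 had 0 UMIs over 80% and none of the 3 tested was called. The summed apoptosis level was 389 and 599 CPM against 1461 and 711. Of 14 antioxidant genes 13 had a UMI, led by Gpx4, which reduces lipid peroxides, with 11 and 10, and Gpx1 with 8 and 5, and 0 of 7 tested were called.

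Noncoding RNAs that stay in the nucleus summed to 6565 and 3533 CPM over 80%, against 41797 and 21417 in low-haemoglobin barcodes and 2920 and 1534 in all with at most 20%. Barcodes between 20 and 80% had 21171 and 13983 CPM. Malat1 was at 3839 and 1138 CPM over 80% and at 38941 and 17811 in low-haemoglobin barcodes (log2 fold change -3.90, SE 1.62, edgeR adjusted p = 0.115). Of 6 tested 2 were called lower (33.3%, against 1.95% of all genes tested), and 0 with no replicate block. Both had entered through the comparator alone, the route of 3 of the 6, by which 4.79% of all genes were lower. The 2 called were Neat1, of the paraspeckles, with 4 and 0 unscaled UMIs against 226 and 67, and Meg3 with 0 and 1 against 107 and 88. Mir99ahg went the other way with 1280 and 1497 CPM against 288 and 482, short of the threshold (edgeR adjusted p = 0.141). Gm42418 itself was at 140091 and 126332 CPM, below both comparator values of 147765 and 321212.

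The 8 lowest fold changes against low-haemoglobin barcodes belonged to genes with 0 UMIs in all 651 barcodes over 80%, where 3 UMIs over the group would be 86.5 CPM. All 8 entered the test through the comparator alone. Measured against that limit, Lncpint, a long noncoding RNA, was at least 6.83-fold lower, with 786 and 370 CPM in the comparator. Zcchc7, of a nuclear RNA decay complex, was at least 6.05-fold lower, and Jun, an immediate early transcription factor, at least 4.91-fold (539 and 295 CPM). The lymphoid factor Ikzf3 was at least 4.38-fold lower, Cobll1 4.25-fold, the homeobox factor Meis1 4.20-fold, the Rab regulator Tbc1d5 3.92-fold and the translation factor Eif5 3.62-fold. Jun was the 1 call among 15 tested immediate early and stress genes (6.67%, against 1.95% of all genes tested). Their median was -2.78, but 9 of them entered through the comparator alone, with a median of -7.22. By that route 1 of 9 was lower (11.1%, against 4.79% of all genes). The 4 that both classes carried into the test had a median of -0.78, against 0.11 for all such genes, and 0 calls. Over all genes the 35 lower calls became 4 with no replicate block and 8 by DESeq2.

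The other genes with the highest fold changes also had few UMIs, and entered the test through the barcodes over 80% alone. Gm33838, a long noncoding RNA gene (chr9:35301722-35307599), had 28 and 20 UMIs in 19 and 13 barcodes over 80% and 0 in both comparators. That is at least 211-fold above the 3 UMIs over the comparator that would be 6.57 CPM. Cyp11a1, which starts steroid hormone synthesis, had 7 and 11 UMIs in 5 and 4 barcodes and was at least 79.0-fold higher. Col4a3, a chain of basement membrane collagen, had 21 and 17 UMIs in 19 and 15 barcodes, against 2 and 0. Chl1, a neural adhesion molecule, had 10 and 16 UMIs against 1 and 0, and Bbs7, a subunit of the BBSome of cilia, 8 and 12 against 1 and 1. No barcode over 80% had more than 5 UMIs of any of these.

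Gm20594, chosen after its value was seen, is annotated as a protein-coding gene of 449 bases on chromosome 6 (79817916 to 79818364). Of these, 439 bases align to mt-Rnr2, the large ribosomal RNA of mitochondria, at 88.4% identity. mt-Rnr2 is not among the 13 mitochondrial rows of the matrix. Gm20594 had 10 and 14 UMIs over 80%, against 1 and 5 in low-haemoglobin barcodes. These counts are not scaled to the nuclear-encoded UMIs of each class.

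Markers of 12 cell types were read in the nuclear-encoded remainder. Platelet and megakaryocyte genes were at 6120 and 7424 CPM, against 1457 and 1118 in low-haemoglobin barcodes and 9026 and 13684 in barcodes between 20 and 80%, with a UMI in 15.3% and 15.8% of barcodes over 80%. In red cells, at a median depth of 10585 and 11125.5 UMIs, the share was 2.31% and 0.617%. Of 18 genes 7 were tested, 3 were higher (42.9%, against 6.5% of all genes tested) and 0 lower, with a median log2 fold change of 1.52. Among the 5 that both classes carried into the test 2 were higher (40%, against 14.9% of all such genes). The 3 were Nrgn, a calmodulin-binding protein of platelets (2337 and 2215 CPM against 230 and 150), and the granule chemokines Pf4 (779 and 898 against 90.5 and 28.1) and Ppbp (835 and 838 against 181 and 126). The adjusted p by edgeR was 0.00125 for Nrgn and 0.0313 for Ppbp, while Pf4 entered through the barcodes over 80% alone. Itgb3, the platelet fibrinogen receptor subunit, was at 835 and 659 CPM against 235 and 201 (edgeR adjusted p = 0.166). At least 5 platelet UMIs were found in 4 and 7 barcodes over 80%.

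Monocyte, macrophage and dendritic genes were at 6621 and 4969 CPM, against 2177 and 257 in low-haemoglobin barcodes and 1410 and 935 between 20 and 80%, and had a UMI in 15.8% and 14.4% of barcodes over 80% and in 0% and 0% of red cells. Lyz2, the lysozyme of phagocytes, accounted for 68 of 119 and 46 of 83 of these UMIs. It was at 3783 and 2754 CPM against 259 and 4.68. Cd74, the invariant chain of class II presentation, was at 1168 and 958 CPM against 350 and 84.2. These were the 2 of 7 tested that were called higher (28.6%, against 6.5% of all genes tested), both through the barcodes over 80% alone. By that route, in which the filter favours higher calls, 2 of 5 list genes were higher (40%), against 62 of 374 genes (16.6%). With no replicate block 1 of the 7 was higher. Of the 18 listed genes 6 had 0 UMIs over 80%.

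Lymphocyte genes were fewer. The B cell list was at 2114 and 2096 CPM, between the 4444 and 1066 of the low-haemoglobin libraries, with Ighm at 11 and 6 UMIs and Igkc at 7 and 9. Of its 7 tested genes 0 were higher and 2 lower (28.6%, against 1.95% of all genes tested). Under total UMIs alone and by DESeq2 1 was lower, and 0 with no replicate block. The list was mixed: 4 of the 7 fold changes were above 0, and the median log2 fold change was 1.16. Ighm was at 612 and 359 CPM against 387 and 70.2, and Igkc at 389 and 539 against 140 and 37.4. Both had entered the test through the barcodes over 80% alone. Ebf1, an early B cell factor, had 2 and 3 UMIs against 395 and 110 (log2 fold change -2.93, edgeR adjusted p = 0.0145). Bank1, a B cell scaffold protein, had 2 and 1 against 301 and 51 and entered through the comparator alone. By that route 4.79% of all genes were called lower. T and NK cell genes gave 6 and 1 UMIs, with 11 of 17 at 0. Pan-leukocyte genes were at 2726 and 1856 CPM, against 9185 and 804, so the libraries of the comparator lay on either side. Ptprc (CD45) had 7 and 7 UMIs. Dock2, a regulator of leukocyte migration, had 5 and 0 UMIs against 414 and 32. Like those of Ebf1 and Bank1, these counts are not scaled to the comparator's 243007 and 213803 nuclear-encoded UMIs, against 17974 and 16702. Dock2 was the 1 of 10 tested called lower, through the comparator alone, and 0 were with total UMIs alone, with no replicate block or by DESeq2. The neutrophil list had 25 and 23 UMIs, led by S100a9 with 11 and 15, while 8 of its 14 genes had 0.

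Mesothelial genes were at 5564 and 5329 CPM over 80%, against 2996 and 5945, and mesenchymal genes at 3561 and 2874 against 1025 and 2788. None of the 11 mesothelial and 6 mesenchymal genes tested was called in either direction. C3 of the complement system had 30 and 25 UMIs, Igfbp5 25 and 20, Upk3b 15 and 15 and Msln 7 and 10. Dcn, a proteoglycan of collagen fibrils, had 27 and 17, Col3a1 12 and 7, and Col1a1 10 and 5, while 11 of 20 mesenchymal genes had 0. A mesenchymal UMI was present in 12.8% and 13.3% of barcodes over 80% and a mesothelial one in 18.3% and 17.2%, against 0.578% and 1.85%, and 0.578% and 0.617%, of red cells. At least 3 mesenchymal UMIs were found in 3 and 4 barcodes. Mgp, outside these lists, was at 3672 and 3233 CPM against 119 and 879 (log2 fold change 3.11, SE 1.00, edgeR adjusted p = 0.028).

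Endothelial genes gave 12 and 12 UMIs, led by Vwf with 6 and 3, and epithelial genes 0 and 2. All 13 skeletal and cardiac muscle genes, among them Acta1 and Ckm, had 0 UMIs over 80% in both libraries. No list had a UMI in as many as 20% of barcodes over 80% other than haemoglobin, ribosomal protein, rRNA-overlapping, respiratory chain and satellite-like genes. Cell types were not assigned to single barcodes, whose median was 37 and 40 nuclear-encoded UMIs.

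**Figure D5:**
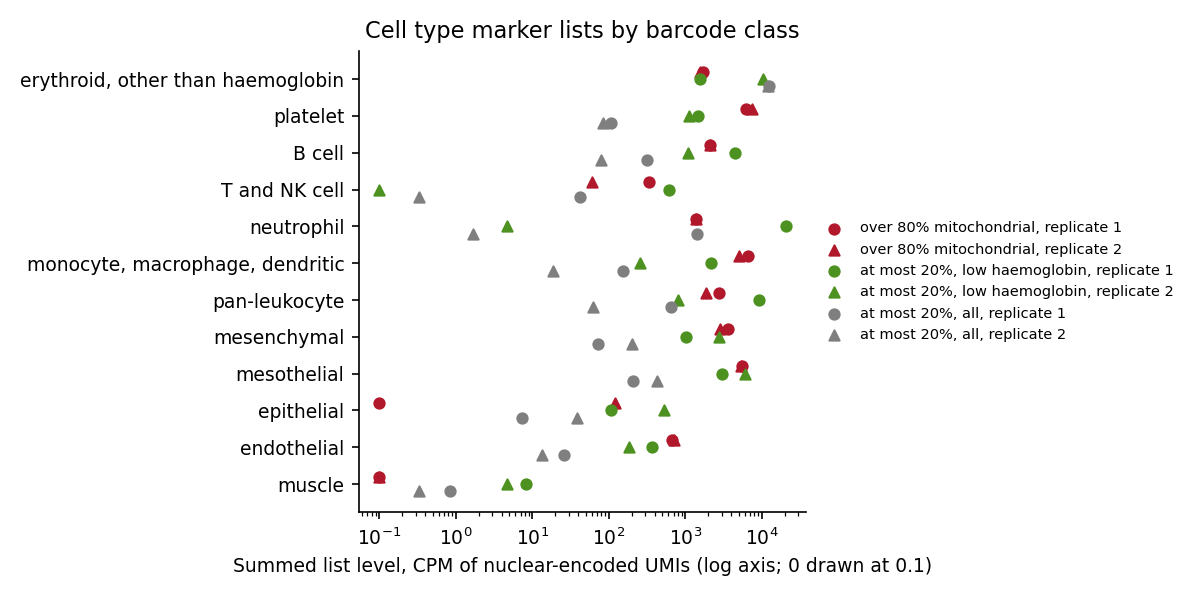
Summed level of 12 cell type marker lists in CPM of nuclear-encoded UMIs (horizontal log axis, with 0 drawn at 0.1), with circles for replicate 1, triangles for replicate 2 and colours for the barcode classes. Platelet and monocyte lists lie above both comparators over 80%, and muscle genes are at 0 there.

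Against all barcodes with at most 20% mitochondrial UMIs, which are mainly red cells, edgeR tested 2900 genes and called 122 higher (4.21%) and 162 lower (5.59%), with a median log2 fold change of -0.72. Haemoglobin takes up most of the comparator's UMIs, and the scaling decides most calls. With total UMIs alone 1135 were higher and 39 lower, 96.7% against 43.0% of calls in the higher direction, and the median was 2.94. This comparison shares the barcodes over 80% with the one before.

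Erythroid genes were lower under TMM, DESeq2-kind and total scaling alike. All 4 tested haemoglobin genes were lower, against 5.59% of all genes tested. Their log2 fold changes ran from -7.53 for Hbb-bt to -6.60 for Hba-a2 under TMM. Their median was -6.84, and -3.09 with total UMIs alone. In CPM, Hbb-bs was 8.46-fold and Hbb-bt 13.6-fold lower. Of 20 other erythroid genes 19 were tested, 16 lower (84.2%, against 5.59% of all genes tested) and 0 higher, with a median of -7.26 against -0.72. Under total UMIs alone 13 were lower, with a median of -3.53. By route, 12 of the 19 entered through the comparator alone, of which 9 were lower (75%, against 14.6% of all such genes). All 7 that both classes carried into the test were lower, against 8.47% of all genes by that route. Alas2, which starts haem synthesis in red cells, had 4 and 3 UMIs over 80%, a level of 223 and 180 CPM against 2374 and 2263 (edgeR adjusted p = 8.44e-08). Bnip3l, a mitophagy receptor, was at 111 and 239 CPM against 890 and 806, and Mkrn1 at 278 and 299 against 1378 and 1384. Ube2l6, a ubiquitin-like conjugating enzyme, had 0 UMIs over 80% and was at least 8.39-fold lower than its 721 and 731 CPM. Glrx5 and Isca1 of iron-sulphur cluster assembly also had 0, at least 1.99-fold and 2.17-fold lower.

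Of the ribosomal protein genes 14 of 79 were higher (17.7%, against 4.21% of all genes tested) and 0 lower against this comparator. Their median log2 fold change was 1.21 against -0.72. Under total UMIs alone 79 of 79 were higher, but only 5 with no replicate block and 0 by DESeq2. With size factors of the DESeq2 kind 14 were higher and 1 lower. Among barcodes with at least 1000 UMIs 6 were higher and 3 lower, with 54 of 79 above 0. Rpl41 had a fold change of -1.88 here, but its CPM was above that of the comparator, at 2392 and 2634 against 728 and 651. Platelet genes gave 4 of 9 higher (44.4%, against 4.21% of all genes tested), of which Nrgn and Ppbp had entered through both classes and Pf4 and Clec1b through the barcodes over 80% alone. Monocyte genes gave 3 of 10 (30%: Lyz2, Adgre1 and Cd74), all through the barcodes over 80% alone, a route by which 9.62% of all genes were higher. With no replicate block these were 2 of 9 and 1 of 10.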

How the data were processed

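The deposited matrices of both libraries hold raw UMI counts, as whole numbers for each gene and barcode. Per the submitters' processing notes, the build was mm10 and the tools were Seurat 5 and Cell Ranger 7.1.0, with no role given. No barcode had fewer than 500 UMIs (replicate 1) or 501 (replicate 2). Libraries held 3967318 and 3329292 UMIs. The sources used here state neither the calling of barcodes nor any removal of doublets, and no doublet caller was run. Of 32285 gene IDs, 99.6% matched GENCODE M21.

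Genes whose symbols start with mt- defined the mitochondrial share. They were left out of all other sums, so CPM is per 1e6 nuclear-encoded UMIs. Sums over the barcodes of each class in each library were compared in R 4.3.3 by edgeR 4.0.16: filterByExpr, TMM scaling, quasi-likelihood test, library as a block because both classes come from the same library, and Benjamini-Hochberg adjustment over all genes tested, at a threshold of 0.05. TMM factors ran from 0.213 to 3.72 against barcodes with at most 20% and from 0.755 to 1.14 against low-haemoglobin ones. P-values measure only the spread between these 2 libraries, pooled over genes, and not a gene's own difference between them. Tested genes were sorted by the class through which they had reached the filter's minimum (10 UMIs at the median total), a split made after seeing the data. The fit was also run on simulated data, with members drawn at the mean of both classes. Those data lack the sparse sums met here, so that run does not bear on the calls. Intervals and floors (3 UMIs over the group) cover counting error only. Sequences were compared with blastn.

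Genes named are the mt- genes, the 15 nuclear genes with most UMIs, per test the 12 highest and 8 lowest fold changes past the threshold and of 1 sign across libraries, and of each of 23 lists at most 4 genes with most UMIs. Genes outside this rule (Gm20594, Meg3, Ebf1, Bank1, Dock2, Clec1b and Adgre1, called members of their lists) were chosen after their values were seen. One gene that the rule names is not reported here. The barcodes and lists were chosen with earlier results of these data known. Alternatives were other scalings, no filter, no replicate block, DESeq2 1.42.0, other limits on mitochondrial share and depth, each library left out and, chosen after seeing the data, a comparator with at least 100 detected genes.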

Additional observations from a re-analysis of the deposited data

How the results depend on the processing

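Against low-haemoglobin barcodes (117 higher and 35 lower), the higher calls became 22 with no filter on low counts, 63 with no replicate block, 76 with barcodes over 90% and 33 with at least 1000 UMIs. The lower calls became 79 with size factors of the DESeq2 kind, 8 with total UMIs alone, 5 with no filter, 4 with no replicate block, 8 with DESeq2, 11 with a comparator of at most 10% mitochondrial UMIs and 23 with at least 1000 UMIs. With a comparator of at least 100 detected genes, which left 88 of 92 and 42 of 134 barcodes and was chosen after seeing the data, 138 were higher and 88 lower. Against all barcodes with at most 20% (122 higher and 162 lower), the higher calls became 1135 with total UMIs alone, 43 with no filter, 48 with no replicate block, 33 with DESeq2 and 48 with at least 1000 UMIs, and the lower calls 39 with total UMIs alone and 106 with DESeq2. DESeq2 gave no adjusted p for 977 and 2192 genes. The cause of these changes was not tested.

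None of the 20 called genes named per comparison changed sign in any alternative that gave it a value, which was 14 to 20 of the 20 genes (0 reversed). These genes have the most extreme fold changes, and each entered its test through a single class. Their sign could thus hardly change, and its stability is no support for the calls. Against low-haemoglobin barcodes 5 of them were no longer called with total UMIs alone, 4 with no replicate block and 4 with DESeq2. With a library left out no residual degree of freedom remains, so those settings gave fold changes with no test, and counts of calls could not be given.

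The share of barcodes became 30.0% with a limit of 90% and 14.2% among barcodes with at least 1000 UMIs, and ran from 33.6 to 36.3% with a library left out. The haemoglobin share of nuclear-encoded UMIs became 12.1% with a limit of 90% and ran from 8.74 to 10.9%. The mt-Co3 share became 22.4% among barcodes with at least 1000 UMIs and ran from 22.6 to 23.0%. Depth limits the nuclear-encoded results: 3 UMIs over all barcodes over 80% are 86.5 CPM.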
